A study of Mus musculus with 10 samples.

Results

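The transcripts of 43 genes of DNA replication and S phase were followed in mouse embryonic fibroblasts (MEFs) after interferon-beta (IFN-β), an antiviral cytokine. The genes were named by symbol, and all 43 were found among the 23370 symbols of the deposited RNA table. For the 11 of them with several transcript rows, the row with the highest mean level was used. They comprise 4 genes of origin recognition and helicase loading, the 6 MCM2-7 helicase genes, 6 of helicase activation, 8 of polymerases and primase, and 6 of the sliding clamp and its loader. The others are 2 subunits of replication protein A, 2 genes of Okazaki fragment joining, 3 of nucleotide synthesis, 3 of G1/S control, Slbp, and 2 genes of maintenance DNA methylation.

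MEFs are primary connective tissue cells grown from embryos. All 10 libraries came from MEFs of C57BL/6 mice with the H3.3b-HA knock-in, in which an HA-tagged H3.3 cDNA stands in place of the H3f3b locus, so no group is wild type at that locus. The naive arm and the pretreated arm were each sampled at 0, 1, 2, 4 and 6 h, with IFN-β given as 100 U per ml, and each arm and time had 1 library. How the pretreatment was given, for how long, and with what washout is not stated in the labels. Hours are read as time from the addition of IFN-β. No library is labelled as a time-matched control without interferon, so a change from 0 h cannot be told apart from one of time in culture.

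Replication of the genome is set up in G1, when the origin recognition complex, CDC6 and CDT1 load the hexameric MCM2-7 helicase onto DNA. In S phase CDC45 and the GINS complex join MCM2-7 to form the active helicase, and polymerases, the clamp PCNA and its loader RFC, and replication protein A act at the fork. Many of these genes are transcribed under control of E2F factors at the G1/S boundary, and their RNA is abundant in dividing fibroblasts. In bulk RNA, fewer cells in S phase and less RNA per cell cannot be told apart.

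Library totals ran from 83.9 M to 268 M counts (M, mega), and the 4 and 6 h libraries were the deepest of each arm. The lowest member count in any library was 237, for Orc1. The 8 fibroblast markers summed to between 9072 and 13450 RPKM (reads per kilobase of transcript, scaled to depth). Markers of macrophages summed to at most 3.71 RPKM, of endothelium to 3.20, of epithelium to 5.20, of muscle to 0.659 and of neural cells to 4.91, and Myod1 was at 0 in every library. Some pretreated libraries stood apart. The ribosomal precursor Rn45s took 3.90% of counts at pretreated 0 h and 2.85% at pretreated 1 h, while the other 8 libraries had 0.974% to 1.51%. Rmrp was at 76.0 RPKM and 30.6 RPKM in these 2 and at most at 21.9 RPKM elsewhere. Col1a2 was at 2028 RPKM at pretreated 1 h, at 2069 RPKM at pretreated 4 h and between 1270 and 1426 RPKM in the remaining pretreated libraries. Against naive cells at the same time, the 8 fibroblast markers, Col1a2 among them, were at most 0.284 higher at pretreated 1 h. At pretreated 4 h they were at most 0.0619 higher, both on the log2(RPKM + 1) scale.

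Most replication genes were lower at 2 to 6 h after IFN-β than at 0 h. The average of the 2, 4 and 6 h levels was set against 0 h over both arms, from the counts, in a quasi-likelihood test (edgeR) with a threshold of 0.05 on the adjusted p. Of the 43 genes 27 fell, 1 rose and 15 did not pass, with a median log2 change of -0.47 against -0.01 over the 12168 genes tested. Over all genes tested, 20.0% fell and 19.9% rose in this test. The gene that rose was Mcm6. The genes that fell included all 3 of nucleotide synthesis, both of fragment joining, both of replication protein A and both of DNA methylation, but none of the 3 of G1/S control. Time point and arm were both fitted, with 4 residual degrees of freedom. The spread behind the p-values is therefore how far the time courses of the arms fail to run parallel. It is not the spread between cultures. The count rests on the 0 h libraries: without naive 0 h no member passed (0 of 43, with 8 of all 12168 genes passing, so that the other lists below rest on that library too, and with 29 members and 4394 of all genes at an unadjusted p under 0.05), and without pretreated 0 h 4 fell and 1 rose, in edgeR. It was 26 fallen and 1 risen without the pretreated 1 h and 4 h libraries, and 24 fallen and 0 risen without pretreated 0 h and 1 h.

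**Figure D1:**
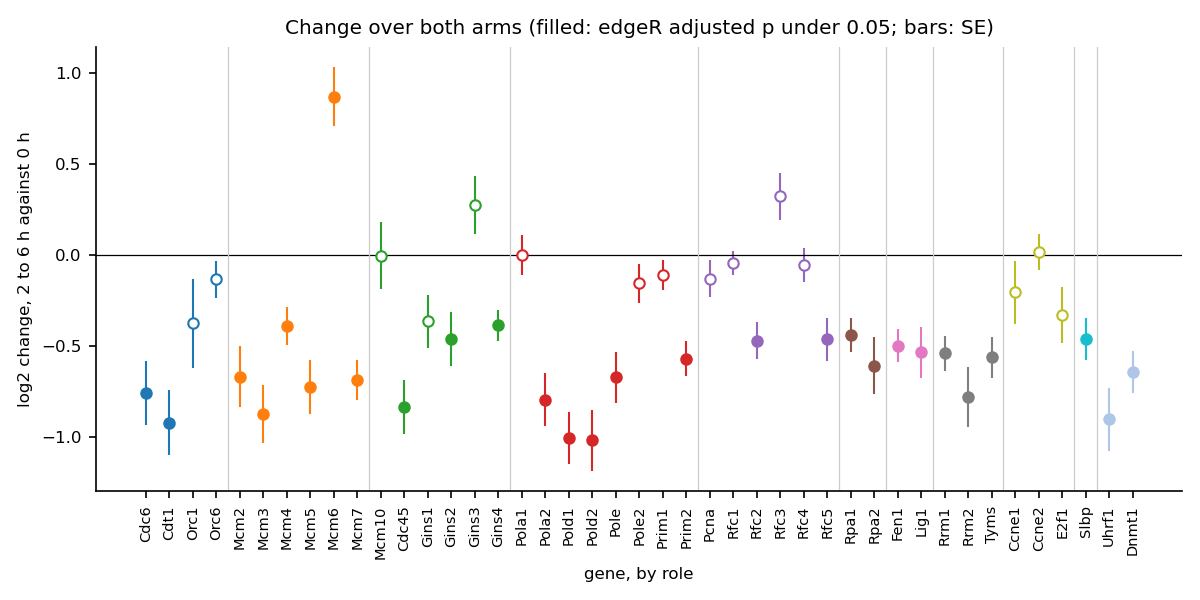
Log2 change of each of the 43 genes at 2, 4 and 6 h against 0 h over both arms (y axis), ordered and coloured by role (x axis). Points are edgeR estimates, bars are SE, and filled points passed an adjusted p of 0.05. Mcm6 at 0.87 is the one filled point above 0, and Pold2 at -1.02 is the lowest.

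Library by library, the largest step down lay between 2 and 4 h in naive cells and again in pretreated cells. Library totals rose at the same step, from 109 M to 254 M counts in naive cells and from 83.9 M to 241 M in pretreated cells. The part of depth was not tested. Differences of single libraries from the 0 h library of their own arm are given on the log2(RPKM + 1) scale, without a test, and the 4 differences of an arm share that 0 h library. In naive cells the median over the 43 genes was -0.08, -0.16, -0.81 and -0.70 from 1 to 6 h. All genes tested had medians of -0.01, -0.01, -0.09 and -0.08. In pretreated cells the members' medians were -0.44, -0.22, -0.76 and -0.48, and those of all genes 0.01, -0.05, -0.09 and -0.03. Both arms were thus lowest at 4 h.

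A fall of 2-fold or more from naive 0 h was seen in 0 of 43 genes in the naive 1 h library (0.181% of all genes tested) and in 0 in the 2 h library (1.27%). The naive 4 h library had 9 such genes (3.19%) and the 6 h library 5 (3.70%). From pretreated 0 h, there were 0 in the 1 h library (0.255%) and 0 in the 2 h library (1.11%). The pretreated 4 h library had 12 (1.92%) and the 6 h library 1, Pold1 (0.616%). Cdc45, Cdt1, Mcm3, Mcm5, Pold1, Pold2, Rrm2 and Uhrf1 were among the genes 2-fold lower at 4 h in both arms. For 36 of the 43 genes all 4 libraries at 4 and 6 h lay below both 0 h libraries, which held for 33.7% of all genes tested. For 28 genes the lowest of the 10 libraries was pretreated 4 h, and for 20 the highest was naive 0 h. These counts were not made over all genes tested, so they cannot be read as particular to the replication genes.

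**Figure D2:**
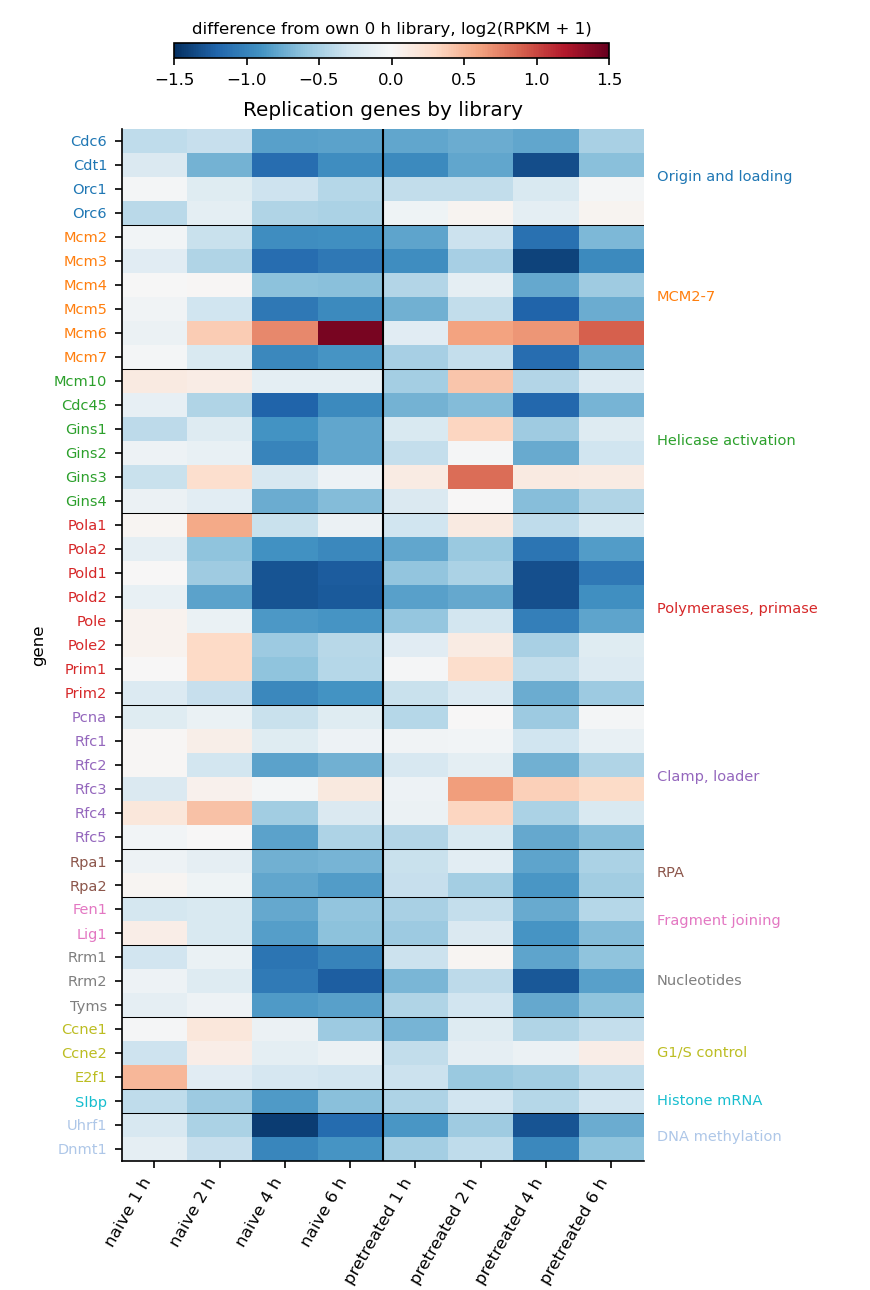
Difference of each replication gene (rows, grouped by role) from the 0 h library of its own arm in 8 libraries (columns), on the log2(RPKM + 1) scale, blue for lower and red for higher. Values run from -1.42 (Uhrf1, naive 4 h) to 1.43 (Mcm6, naive 6 h), and the 4 h columns are blue in most rows.

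The MCM2-7 genes split 5 to 1. Their products form a ring of 6 different subunits in equal number, which is the motor of the replication fork. At 0, 1, 2, 4 and 6 h Mcm3 was at 52.6, 46.7, 38.2, 23.3 and 24.5 RPKM in naive cells and 53.5, 27.6, 37.7, 19.9 and 27.2 RPKM in pretreated cells. All 4 libraries at 4 and 6 h lay below the other 6, with the pretreated 1 h library next. Mcm3 fell by 0.88 in log2 units (SE 0.16, adjusted p = 0.00820 in edgeR). In the same order of times Mcm6 was at 58.6, 54.8, 76.8, 96.8 and 159 RPKM in naive cells and 57.8, 51.4, 88.1, 92.3 and 109 RPKM in pretreated cells. The 6 libraries at 2, 4 and 6 h all lay above the 4 at 0 and 1 h, with naive 6 h the highest. Mcm6 rose by 0.87 in log2 units (SE 0.16, adjusted p = 0.00869 in edgeR); without naive 0 h its adjusted p was 0.0770, and without pretreated 0 h and 1 h together 0.0611.

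The other 4 subunit genes fell with Mcm3. Mcm2 was at 41.1, 39.8, 32.4, 21.1 and 21.3 RPKM in naive cells and 45.6, 26.0, 36.1, 20.5 and 28.1 RPKM in pretreated cells, and it fell by 0.67 in log2 units (SE 0.17, adjusted p = 0.0206 in edgeR). Mcm5 fell by 0.73 in log2 units (SE 0.15, adjusted p = 0.0113 in edgeR) and Mcm7 fell by 0.69 in log2 units (SE 0.11, adjusted p = 0.00603 in edgeR). Mcm4 had the smallest fall, with 44.4, 44.1, 45.1, 28.5 and 28.5 RPKM in naive cells and 46.2, 33.9, 41.8, 26.6 and 31.5 RPKM in pretreated cells, and it fell by 0.39 in log2 units (SE 0.10, adjusted p = 0.0237 in edgeR); it did not pass without the naive 0 h, naive 2 h, naive 6 h, pretreated 0 h or pretreated 2 h library. Set against the mean RPKM of these 5 genes, Mcm6 was 1.33, 1.30, 2.09, 4.30 and 6.81 times as high in naive cells at 0, 1, 2, 4 and 6 h. In pretreated cells the ratio was 1.29, 1.86, 2.49, 4.57 and 4.07. In the 0 h libraries Mcm6 thus made up 21.0% and 20.5% of the summed RPKM of the 6 genes, and in the naive 6 h library 57.7%.

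**Figure D3:**
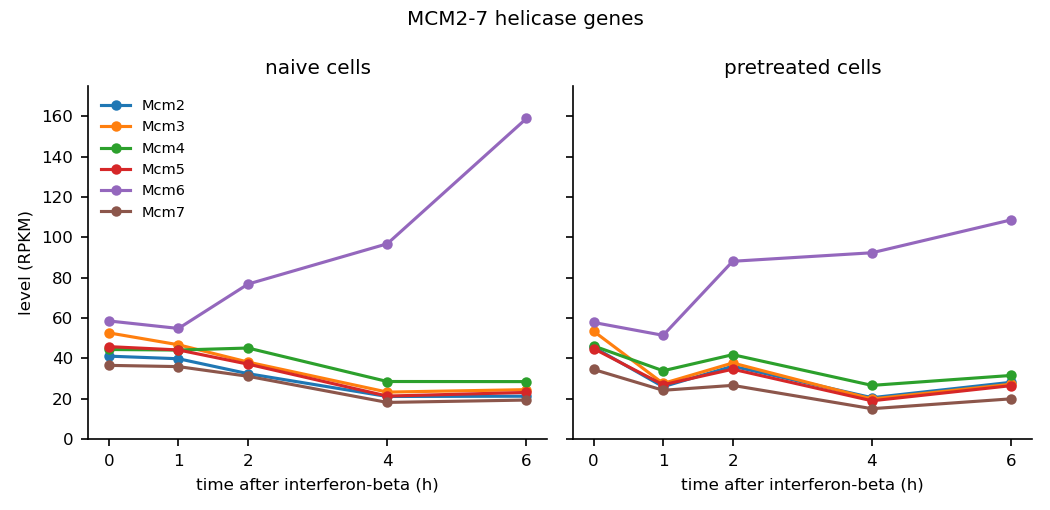
Level in RPKM (y axis) of the 6 MCM2-7 genes at 0 to 6 h (x axis) in naive cells (left) and pretreated cells (right), with 1 library per point. At 6 h Mcm6 reaches 159 RPKM (naive) and 109 RPKM (pretreated), while the other 5 lie between 15.1 and 31.5 RPKM at 4 and 6 h.

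Promoter sequences were read for the member that rose, Mcm6, and for the largest falls among the 43, Pold2 and Pold1. Mcm3 was added after its values were seen, as the MCM gene with the largest fall. Each is the 300 bases from 250 before to 50 after the RefSeq start, 5′ to 3′ on the gene's strand, from RefSeq on GRCm38.p6, the assembly of mm10. Capitals mark matches to the E2F motif.
Mcm6, chr1:128359656-128359955, minus strand: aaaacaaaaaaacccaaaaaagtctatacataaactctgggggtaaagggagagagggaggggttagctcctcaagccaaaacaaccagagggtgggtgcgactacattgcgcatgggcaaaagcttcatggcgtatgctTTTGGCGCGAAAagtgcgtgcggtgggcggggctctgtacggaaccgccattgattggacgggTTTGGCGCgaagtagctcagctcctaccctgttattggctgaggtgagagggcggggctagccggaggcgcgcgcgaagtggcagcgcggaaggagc
Mcm3, chr1:20820263-20820562, minus strand: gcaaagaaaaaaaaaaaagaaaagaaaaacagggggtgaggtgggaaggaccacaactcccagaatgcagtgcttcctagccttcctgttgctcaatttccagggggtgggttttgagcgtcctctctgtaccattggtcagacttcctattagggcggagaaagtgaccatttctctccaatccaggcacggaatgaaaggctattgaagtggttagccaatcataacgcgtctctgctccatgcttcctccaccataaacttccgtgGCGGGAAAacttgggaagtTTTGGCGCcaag
Pold1, chr7:44548766-44549065, minus strand: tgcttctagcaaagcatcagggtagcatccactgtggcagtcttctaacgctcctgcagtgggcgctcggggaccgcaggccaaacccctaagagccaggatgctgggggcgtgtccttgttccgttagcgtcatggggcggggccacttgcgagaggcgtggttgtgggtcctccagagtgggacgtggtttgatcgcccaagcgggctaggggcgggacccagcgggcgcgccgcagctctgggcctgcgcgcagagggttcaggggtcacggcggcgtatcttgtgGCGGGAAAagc
Pold2, chr11:5878207-5878506, minus strand: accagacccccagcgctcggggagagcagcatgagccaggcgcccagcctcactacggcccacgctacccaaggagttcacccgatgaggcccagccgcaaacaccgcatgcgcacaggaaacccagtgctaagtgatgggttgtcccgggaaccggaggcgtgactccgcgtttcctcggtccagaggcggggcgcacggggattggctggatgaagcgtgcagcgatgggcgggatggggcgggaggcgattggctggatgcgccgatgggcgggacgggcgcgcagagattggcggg
The RefSeq start lay 49 bases upstream of the start in the deposited table for Mcm6 and 99 bases upstream for Mcm3. For Pold1 and Pold2 the distance was 0.

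The E2F motif was searched on both strands as TTTCGCGC, TTTGGCGC, TTTCCCGC and TTTGCCGC. With positions counted from 0 at the start site, Mcm6 had matches at -110 to -103, -106 to -99 and -47 to -40, the first pair overlapping on opposite strands. Mcm3 had matches at 19 to 26 and 38 to 45, and Pold1 had 1 at 39 to 46. Pold2 held none of these letters in the window. Counted from the RefSeq start, the Mcm6 matches lay before the start site and those of Mcm3 and Pold1 after it. The Mcm3 start in the deposited table lay 99 bases downstream, beyond these matches. Counted from that start, the Mcm3 matches lay before it, like those of Mcm6. No promoter of the 35 members held the interferon-stimulated response element (ISRE), searched by its consensus on both strands, against 3.09% of the genes tested.

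Of the genes that recognise origins and load the helicase, Cdt1 and Cdc6 fell and the origin recognition subunits Orc1 and Orc6 did not pass. Cdt1 was at 17.2, 14.7, 10.1, 7.23 and 8.59 RPKM in naive cells and 20.8, 10.3, 11.7, 7.70 and 13.1 RPKM in pretreated cells, and it fell by 0.92 in log2 units (SE 0.18, adjusted p = 0.00928 in edgeR). Cdc6, the ATPase partner of CDT1 in loading, ranged from 2.48 to 5.32 RPKM and fell by 0.76 in log2 units (SE 0.18, adjusted p = 0.0159 in edgeR). Orc1 was the lowest of all members at 0.893 to 1.54 RPKM, with a change of -0.38 in log2 units (SE 0.24, adjusted p = 0.250 in edgeR). Orc6 had a change of -0.14 in log2 units (SE 0.10, adjusted p = 0.307 in edgeR) at 15.5 to 21.9 RPKM.

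Among the genes of helicase activation 3 of 6 fell. Cdc45, which binds the MCM ring in the active helicase, was at 25.6, 23.5, 18.5, 10.6 and 12.8 RPKM in naive cells and 24.2, 14.4, 15.0, 10.1 and 14.5 RPKM in pretreated cells. Both 4 h libraries and both 6 h libraries were below both 0 h libraries, and Cdc45 fell by 0.84 in log2 units (SE 0.15, adjusted p = 0.00751 in edgeR). The GINS complex has 4 subunits. Gins4 fell by 0.39 in log2 units (SE 0.09, adjusted p = 0.0134 in edgeR) and Gins2 fell by 0.47 in log2 units (SE 0.15, adjusted p = 0.0426 in edgeR), while Gins1 had a change of -0.37 in log2 units (SE 0.15, adjusted p = 0.0822 in edgeR). Gins2 did not pass without the naive 0 h, naive 2 h, naive 4 h, naive 6 h, pretreated 0 h, pretreated 2 h or pretreated 4 h library. It overlaps Gse1 on the opposite strand over 118 bases, and Gse1 stood at 7.8 to 11.3 RPKM. With strand use not given, the counts of Gins2 and Gse1 cannot be separated there. Gins3 differed in sign, with 4.98, 3.73, 6.14, 4.06 and 4.69 RPKM in naive cells and 3.20, 3.57, 6.49, 3.60 and 3.58 RPKM in pretreated cells and a change of 0.27 in log2 units (SE 0.16, adjusted p = 0.210 in edgeR). Its highest levels were in both 2 h libraries. Mcm10, a scaffold of helicase activation, was at 7.13 to 14.4 RPKM with a change of -0.00 in log2 units (SE 0.19, adjusted p = 0.986 in edgeR). Its highest level was at pretreated 2 h, which enters that average, and all its libraries at 4 and 6 h lay below both 0 h libraries.

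Both polymerase delta genes in the set fell more than any other member. Pold1, the catalytic subunit of polymerase delta, was at 18.7, 18.9, 12.7, 7.06 and 7.28 RPKM in naive cells and 18.3, 11.8, 12.8, 6.71 and 8.14 RPKM in pretreated cells. Its 4 libraries at 4 and 6 h lay below the other 6, and it fell by 1.01 in log2 units (SE 0.14, adjusted p = 0.00530 in edgeR). Pold2, the accessory subunit, was at 55.2, 50.8, 31.3, 22.0 and 22.4 RPKM in naive cells and 47.4, 26.5, 27.5, 18.5 and 24.5 RPKM in pretreated cells and fell by 1.02 in log2 units (SE 0.17, adjusted p = 0.00652 in edgeR). The gene overlaps Aebp1 on the opposite strand over 46 bases, and Aebp1 stood at 288 to 484 RPKM, so with strand use not given the counts of the pair cannot be separated there. Pole, the catalytic subunit of polymerase epsilon, fell by 0.68 in log2 units (SE 0.14, adjusted p = 0.0111 in edgeR), with 4.84 to 11.5 RPKM.

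In polymerase alpha-primase, which lays down primers, Pola2 fell by 0.80 in log2 units (SE 0.15, adjusted p = 0.00827 in edgeR) and Prim2 fell by 0.57 in log2 units (SE 0.10, adjusted p = 0.00702 in edgeR). Their partners Pola1, the catalytic subunit, and Prim1, the primase catalytic subunit, had changes of -0.00 in log2 units (SE 0.11, adjusted p = 0.980 in edgeR) and -0.11 in log2 units (SE 0.08, adjusted p = 0.302 in edgeR). Pola1 was at 7.08, 7.26, 11.0, 5.40 and 6.58 RPKM in naive cells and 6.99, 5.50, 7.76, 5.15 and 5.83 RPKM in pretreated cells, highest at 2 h in both arms. Prim1 was at 27.6, 27.6, 34.1, 17.8 and 20.3 RPKM in naive cells and 25.0, 24.7, 30.2, 19.1 and 21.6 RPKM in pretreated cells, also highest at 2 h in both. Pole2, the second subunit of polymerase epsilon, had a change of -0.16 in log2 units (SE 0.11, adjusted p = 0.274 in edgeR). It was highest at 2 h in both arms, at 13.7 RPKM (naive) and 10.5 RPKM (pretreated). For Pola1, Prim1 and Pole2 all libraries at 4 and 6 h lay below both 0 h libraries, and the tested average includes the 2 h levels. Whether the change of 1 subunit differs from that of its partner was not tested.

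The clamp Pcna, which tethers polymerases to DNA, was at 69.5, 61.2, 65.0, 55.1 and 61.1 RPKM in naive cells and 60.8, 44.9, 60.8, 41.3 and 59.7 RPKM in pretreated cells. Its 4 and 6 h libraries overlapped the range of the others, and its change was -0.13 in log2 units (SE 0.10, adjusted p = 0.320 in edgeR). Of the 5 RFC subunits, which load the clamp, Rfc2 fell by 0.47 in log2 units (SE 0.10, adjusted p = 0.0131 in edgeR) and Rfc5 fell by 0.47 in log2 units (SE 0.12, adjusted p = 0.0201 in edgeR). Rfc1, Rfc3 and Rfc4 did not pass. Rfc3 was at 24.5, 20.9, 25.8, 24.0 and 27.2 RPKM in naive cells and 19.1, 18.1, 29.9, 24.7 and 23.6 RPKM in pretreated cells, with a change of 0.32 in log2 units (SE 0.13, adjusted p = 0.0876 in edgeR); it passed as higher only when the naive 2 h library was left out. Rfc4 was at 16.6, 18.8, 22.9, 11.3 and 14.2 RPKM in naive cells and 15.6, 14.6, 19.7, 10.9 and 13.2 RPKM in pretreated cells. Its change was -0.06, an average that joins the high 2 h levels with 4 and 6 h levels below both 0 h libraries. Rfc4 overlaps Eif4a2 on the opposite strand over 185 bases. Rfc1 was at 13.0 to 16.9 RPKM, with a change of -0.05.

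Replication protein A coats single-stranded DNA at the fork. Rpa1 was at 50.0, 47.3, 45.4, 29.9 and 30.5 RPKM in naive cells and 44.5, 35.1, 39.9, 25.2 and 31.7 RPKM in pretreated cells and fell by 0.44 in log2 units (SE 0.09, adjusted p = 0.0118 in edgeR). Rpa2 fell by 0.61 in log2 units (SE 0.16, adjusted p = 0.0216 in edgeR). Fen1, which trims the flaps of Okazaki fragments, fell by 0.50 in log2 units (SE 0.09, adjusted p = 0.00798 in edgeR), and Lig1, which seals them, fell by 0.54 in log2 units (SE 0.14, adjusted p = 0.0227 in edgeR); Lig1 did not pass without the naive 0 h, naive 2 h, naive 6 h or pretreated 0 h library.

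Genes that make deoxynucleotides fell together. Rrm1 and Rrm2 encode the subunits of ribonucleotide reductase and Tyms encodes thymidylate synthase. Rrm2 was at 47.6, 45.2, 41.6, 22.2 and 19.6 RPKM in naive cells and 43.9, 26.8, 33.2, 17.6 and 24.5 RPKM in pretreated cells. Its 4 libraries at 4 and 6 h lay below the other 6, and it fell by 0.78 in log2 units (SE 0.16, adjusted p = 0.0118 in edgeR). Rrm1 was at 62.0, 50.5, 57.9, 28.5 and 30.5 RPKM in naive cells and 41.4, 32.8, 42.1, 23.5 and 26.8 RPKM in pretreated cells and fell by 0.54 in log2 units (SE 0.10, adjusted p = 0.00785 in edgeR). Tyms fell by 0.57 in log2 units (SE 0.11, adjusted p = 0.0100 in edgeR). In a list of 12 further genes of nucleotide supply 5 fell and 2 rose, against 20.0% and 19.9% of all genes tested. Tk1, thymidine kinase of the salvage pathway, was at 46.0, 55.1, 34.1, 16.3 and 17.0 RPKM in naive cells and 35.4, 21.9, 21.5, 12.9 and 17.3 RPKM in pretreated cells and fell by 1.02 in log2 units (SE 0.21, adjusted p = 0.0111 in edgeR). Samhd1, which hydrolyses deoxynucleotides and restricts viruses, went the other way, with 35.5, 67.7, 208, 365 and 447 RPKM in naive cells and 56.6, 84.7, 229.9, 301 and 296 RPKM in pretreated cells. It rose by 2.78 in log2 units (SE 0.29, adjusted p = 0.00498 in edgeR). Ctps, CTP synthase, rose by 0.32, and Dctpp1 and Impdh2 had changes of -0.79 and -0.59.

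The G1/S control genes in the set, Ccne1, Ccne2 and E2f1, did not pass. E2f1, a transcription factor of S phase entry, was at 14.2, 20.5, 12.5, 11.8 and 11.5 RPKM in naive cells and 16.5, 13.0, 10.9, 11.2 and 12.4 RPKM in pretreated cells. Naive 1 h was the highest and the other libraries lay between 10.9 and 16.5 RPKM. Its change was -0.33 in log2 units (SE 0.16, adjusted p = 0.127 in edgeR); it passed as lower without the naive 1 h library and without the pretreated 1 h library. Ccne1, cyclin E1, had a change of -0.21 in log2 units (SE 0.17, adjusted p = 0.364 in edgeR) and Ccne2, cyclin E2, of 0.02 in log2 units (SE 0.10, adjusted p = 0.906 in edgeR). Ccne2 overlaps Ints8 over 5622 bases on the opposite strand, and Ints8 stood at 11.1 to 16.4 RPKM against 4.46 to 7.72 RPKM for Ccne2, so their counts cannot be separated where strand use is not given. In a list of 27 further tested genes of G1/S control 12 fell and 2 rose, against 20.0% and 19.9% of all genes tested. Both E2f7 and E2f8, repressors that are themselves expressed in S phase, fell, and E2f8 fell by 1.14 in log2 units (SE 0.22, adjusted p = 0.00951 in edgeR). Cdk4 fell by 0.52 in log2 units (SE 0.10, adjusted p = 0.0100 in edgeR), while Ccnd2, cyclin D2, and Rbl1, which encodes the pocket protein p107, rose by 0.42 and 0.79.

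Of the 3 members that link replication to chromatin, all fell. Slbp, which binds the stem-loop of histone mRNAs, was at 29.6, 22.5, 19.9, 15.9 and 18.9 RPKM in naive cells and 24.6, 17.5, 20.0, 18.0 and 20.0 RPKM in pretreated cells and fell by 0.46 in log2 units (SE 0.12, adjusted p = 0.0202 in edgeR); it did not pass without the naive 0 h, naive 6 h or pretreated 0 h library. Uhrf1, which recognises hemimethylated DNA behind the fork, was at 36.5, 30.7, 25.9, 13.0 and 15.8 RPKM in naive cells and 33.4, 17.8, 22.9, 13.1 and 19.6 RPKM in pretreated cells. It fell by 0.91 in log2 units (SE 0.17, adjusted p = 0.00914 in edgeR). Dnmt1, the maintenance methyltransferase that UHRF1 recruits, was at 50.6, 46.1, 39.8, 25.3 and 26.9 RPKM in naive cells and 47.6, 33.2, 36.3, 23.9 and 31.1 RPKM in pretreated cells and fell by 0.64 in log2 units (SE 0.12, adjusted p = 0.00787 in edgeR). For Dnmt1 all 4 libraries at 4 and 6 h lay below the other 6, while for Uhrf1 pretreated 6 h lay above pretreated 1 h. Of 10 other genes of chromatin at forks 5 fell and 2 rose (20.0% and 19.9% of all genes tested), the latter being Asf1a with a change of 1.07 and Npat, an activator of histone genes, with 0.57. Among those that fell were Chaf1a and Chaf1b, subunits of the CAF-1 chaperone, with -0.90 and -0.73.

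The other genes of the pathway were counted by step, where 20.0% of all genes tested fell and 19.9% rose. No list was tested against these shares or against another list. Of 8 further genes of origin licensing 0 fell and 2 rose, Orc4 and Mcm9. Orc4 was at 11.8, 10.6, 18.7, 16.8 and 20.9 RPKM in naive cells and 10.8, 13.5, 17.2, 18.9 and 21.5 RPKM in pretreated cells, with all 6 libraries at 2, 4 and 6 h above both 0 h libraries, and it rose by 0.81 in log2 units (SE 0.11, adjusted p = 0.00526 in edgeR). Of 8 genes of origin firing 5 fell and 0 rose. Ticrr, also called treslin, fell by 1.15 in log2 units (SE 0.14, adjusted p = 0.00500 in edgeR), and Dbf4, the activator of the CDC7 kinase, fell by 0.53 in log2 units (SE 0.10, adjusted p = 0.00912 in edgeR). Of 16 other fork proteins 7 fell and 1 rose, with Top2a at 40.4 to 106 RPKM and Pold4 among those that fell and Pole4 the one that rose. Of 12 genes of repair at forks 6 fell and 0 rose, among them Msh6, of the mismatch repair machinery, which fell by 0.47 in log2 units (SE 0.08, adjusted p = 0.00787 in edgeR). Of 12 reference genes, chosen as not tied to replication, 4 fell and 1 rose. Of the 8 fibroblast markers 3 fell, and of the 5 RNA quality transcripts 2 rose and 2 fell; their part in the members' changes was not tested. Of 8 interferon-induced genes kept as a check of the treatment 4 rose and 0 fell in this test over both arms. Without a test, all 8 were 2-fold or more above naive 0 h in each naive library from 1 to 6 h and at pretreated 0 h. From pretreated 0 h, 4, 6, 7 and 7 were 2-fold or more higher at 1, 2, 4 and 6 h.

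Mitosis genes share the direction. Of 27, listed as a contrast within the cell cycle, 26 fell and 1, Cenpe, rose (20.0% and 19.9% of all genes tested), with a median log2 change of -0.83 against -0.47 for the replication genes. At 4 h the medians were -1.37 and -0.81 in naive cells and -1.13 and -0.76 in pretreated cells. The difference between the lists was not tested.

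**Figure D4:**
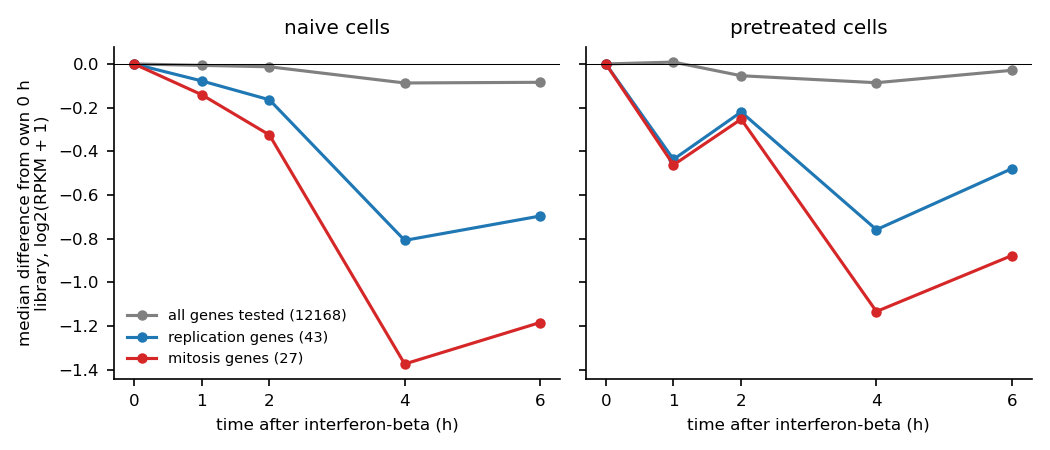
Median difference from the 0 h library of the same arm, on the log2(RPKM + 1) scale (y axis), against time (x axis) in naive cells (left) and pretreated cells (right), for 43 replication genes, 27 mitosis genes and 12168 genes tested. The replication genes reach -0.81 in naive and -0.76 in pretreated cells at 4 h, and in pretreated cells -0.44 at 1 h and -0.22 at 2 h.

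The pretreated 1 h library broke the time course. For 40 of 43 genes it lay below both the 0 h and the 2 h library of its arm. The same held for 22 of 27 mitosis genes and for 23.5% of all genes tested. In the naive arm it held for 14 members, 9 of 27 mitosis genes and 28.2% of all genes. In the pretreated 1 h library the members summed to 768 RPKM, against 1078 at 0 h and 962 at 2 h. In naive cells the sum was 1174, 1090 and 1040 RPKM at the same times. Of the transcripts that differed among the pretreated libraries, Rn45s and Rmrp were higher still at pretreated 0 h, and Col1a2 was about as high at pretreated 4 h. Their part in the low values at 1 h was not tested. At 2 h, 8 genes were above 0 h in both arms: Mcm6, Mcm10, Gins3, Rfc3, Rfc4, Pola1, Pole2 and Prim1. Of all genes tested 36.1% were.

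Between 4 and 6 h no replication gene passed the test. Of the 43 genes 32 were higher at 6 h than at 4 h in both arms, against 39.5% of all genes tested. In edgeR 0 members passed, at 0% of all genes tested in either direction. Unadjusted p-values under 0.05 were found for 542 genes and 2 members, Mcm6 with a change of 0.46 in log2 units (SE 0.19, adjusted p = 0.997 in edgeR) and Pcna with 0.31 in log2 units (SE 0.12, adjusted p = 0.997 in edgeR). DESeq2 found 0 members and 23 lower genes. Missing the threshold does not show that levels were the same at 4 and 6 h.

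In edgeR no replication gene passed between the arms, while DESeq2 called 6 members lower in pretreated cells. Over all 12168 genes tested, DESeq2 called 795 lower and 576 higher. The pretreated against naive test took the arm difference over the 5 matched times. In edgeR 0 members were called, at 0.386% of all genes tested higher and 0.879% lower in pretreated cells, and 14 members had an unadjusted p under 0.05, as did 2660 of all genes tested. All 14 members had a negative estimate. Rrm1 came nearest in edgeR, with a difference of -0.44 in log2 units (SE 0.08, adjusted p = 0.0507 in edgeR) and lower levels in pretreated cells at 5 of 5 times. Gins1 had a difference of -0.56 in log2 units (SE 0.12, adjusted p = 0.0657 in edgeR), with 0 h levels of 13.2 RPKM (naive) and 7.11 RPKM (pretreated). Tyms and Rfc5 had differences of -0.37 in log2 units (SE 0.09, adjusted p = 0.0854 in edgeR) and -0.37 in log2 units (SE 0.09, adjusted p = 0.0899 in edgeR). The members lower in pretreated cells at all 5 times numbered 10, namely Gins1, Pcna, Rfc4, Rfc5, Pola1, Prim2, Rrm1, Tyms, Ccne2 and Lig1, and 9.77% of all genes tested were. Members higher at all 5 times numbered 0. In the mitosis list 26 of 27 were lower at all 5 times and 7 passed the test as lower. The calls of the arm test rest on single libraries: over all genes tested, 47 higher and 107 lower became 0 and 2 without the naive 1 h, naive 2 h, pretreated 1 h or pretreated 2 h library. They became 2 and 5 without any 1 of the 0 h or 6 h libraries. The 4 h libraries mattered less, with 34 and 125 without naive 4 h and 39 and 136 without pretreated 4 h.

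Matched by time, the median difference of pretreated from naive cells over the 43 genes was -0.09, -0.47, -0.17, -0.10 and 0.08 from 0 to 6 h, on the log2(RPKM + 1) scale. For all genes tested it was 0.00, 0.02, -0.03, -0.01 and 0.05. The 1 h value, which rests on the pretreated 1 h library, was the largest in size of the 5. Genes far below 0 h in 1 arm were mostly so in the other: across the 43 genes, which are not independent, the differences from the own 0 h library had Pearson r = 0.90 and Spearman rho = 0.88 between arms at 4 h, where all genes tested had 0.77 and 0.69. At 6 h the members had 0.91 and 0.89 and all genes 0.85 and 0.83. At 2 h the members had 0.77 and 0.78 and all genes 0.78 and 0.74, and at 1 h the members had 0.06 and 0.09 and all genes 0.42 and 0.27.

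Whether the change from 0 h differed between the arms was tested with a term for arm by stimulation, which left 3 residual degrees of freedom. In edgeR 0 members passed, at 0% of all genes tested in either direction. At an unadjusted p under 0.05 there were 741 genes and 0 members, and DESeq2 called 12 genes higher, 121 lower and 0 members. A p that misses the threshold does not show that the arms responded alike.

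The promoters of these genes were also compared as a group. RefSeq promoter windows were matched by symbol for 35 of the 43 members, and 31 of these had a start within 100 bases of the start in the deposited table. An E2F match was found in 14 of 35 (40.0%), against 4.20% of 8813 genes tested, 2.32% of 27025 promoters of all genes and 1 of 22 mitosis genes. Matches were found in 8 of 21 that fell and in 6 of 14 others. The CHR motif TTTGAA, known from genes of G2 and mitosis, was in 4 of 35 members, in 11.5% of genes tested and in 15 of 22 mitosis genes. The CCAAT box, searched as CCAAT, was in 23 of 35 members (65.7%), in 39.3% of genes tested and in 19 of 22 mitosis genes. Both were searched on both strands. A match is a description of sequence and shows no binding.

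**Figure D5:**
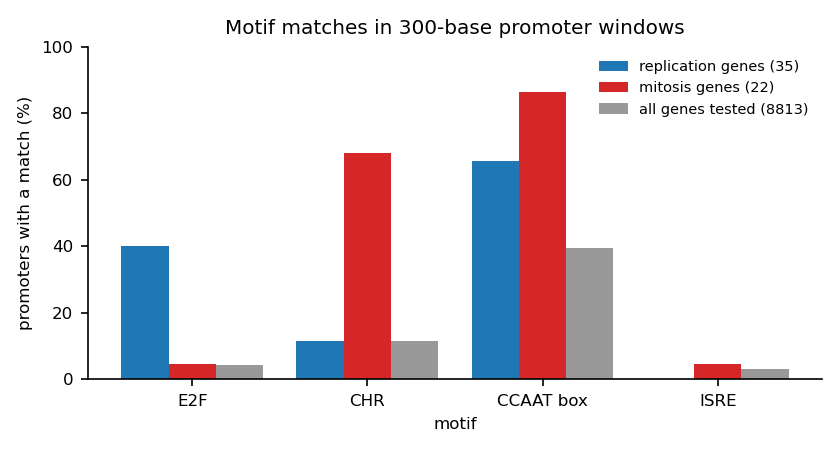
Share of 300-base promoter windows with a match on either strand (y axis, %) to the E2F, CHR, CCAAT box and ISRE motifs (x axis) in 35 replication genes, 22 mitosis genes and 8813 genes tested. The E2F bar is 40.0% for replication genes and 4.20% for all genes tested, and the CHR bar is highest, at 68.2%, for mitosis genes.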

How the data were processed

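RNA was measured by sequencing in 10 MEF libraries. The deposited table lists RefSeq transcripts of mm10 and holds unnormalised tag counts, per the file headers. Beside them stand RPKM values that the authors computed, per the file headers. The submitters' processing notes name Bowtie, TopHat and Cufflinks 1.2.1 without a role. For strand use, reads with several positions and the counting tool: not given in the sources used here.

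Of 30646 rows, 15 named no gene (0.0157% to 0.0193% of counts) and were left out. The row with the highest mean RPKM was kept per symbol, and a gene was tested where 2 or more libraries reached 1 RPKM, which 12168 genes did, all 43 members among them. Counts were fitted with edgeR 4.0.16 (quasi-likelihood test, TMM scaling) on time point and arm, with Benjamini-Hochberg adjustment over all genes tested, and SE as the log2 change over the root of F. The fits were also run on simulated data, and the outcome is not reported here. Single libraries were compared on log2(RPKM + 1), which understates changes of low genes, and 2-fold counted as apart. Each group has 1 library, so no value has a replicate error.

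Alternatives were other scalings, DESeq2 1.42.0, limma 3.58.1 on RPKM, other filters, another pseudocount, a 1.5-fold limit, and each library left out. Leaving out 2 pretreated libraries at once was a choice added after seeing the data. The members, lists, motifs and tests were chosen with earlier results of these data known. All members may be named, and of each other list the 4 genes of highest mean RPKM and the 3 largest called changes in each direction. Promoters were printed for up to 2 members with the largest rise and 2 with the largest fall, plus Mcm3.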

Additional observations from a re-analysis of the deposited data

How the results depend on the processing

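No paired analysis was possible because the labels give no replicate numbers, beyond the matching of the arms by time that the arm test already makes. None of the 28 members that changed at 2 to 6 h reversed under any alternative. Leaving out 1 library gave 0 to 28 members lower and 0 to 2 higher (27 and 1 with all libraries), the lows being without naive 0 h, where 0 h rests on the pretreated library alone. Without pretreated 0 h and 1 h 0 members were higher. Leaving out 1 library moved the log2 change of Mcm6 between 0.75 and 0.96 and of Pold1 between -1.07 and -0.95. Between the arms, the number of members lower was 1 with DESeq2 size factors in edgeR, 6 with the DESeq2 Wald test and 1 with no filter on low values, against 0. Over all genes the arm test called 47 higher and 107 lower in edgeR, 576 and 795 in DESeq2, 100 and 104 with limma and 97 and 219 with no filter. The interaction could not be fitted without a 0 h library.

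With 1.5-fold as the limit, the members lower than naive 0 h numbered 3, 29 and 27 in the naive 2, 4 and 6 h libraries, where 7.45%, 13.2% and 15.4% of all genes tested were lower. Those lower than pretreated 0 h numbered 12, 4, 26 and 17 from 1 to 6 h, with 2.91%, 7.36%, 11.3% and 5.42% of all genes. With log2(RPKM + 0.1), 8 members were 2-fold lower at naive 6 h (6.15% of all genes) and 1 at pretreated 1 h (0.674%). The cause of these shifts was not tested, other than that fewer samples or another limit enter by construction. Every member had 237 or more counts in every library, but with 1 library per arm and time no spread between cultures is known.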
